A study of Rattus norvegicus with 24 samples.

Results

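The 9 genes Bgn, Dcn, Lum, Fmod, Serpinh1, Olfml2a, Slc13a3, Igf2 and Aldh1a2, grouped here as meningeal fibroblast genes other than collagens, were followed across a dose series of D-serine in rat forebrain. They were chosen by name, with earlier results of these data known, from 14218 genes that the array annotation names with a single symbol. Every probe set of theirs was taken, 14 in all. A probe set is the group of short probes that measures 1 transcript. Of the 14 probe sets 9 were bright enough to be tested, 1 for each gene, so that no gene was lost to the filter on dim values. The other 5, of which Igf2 had 3 and Olfml2a and Serpinh1 had 1 each, fell in the dimmest 40% of the table by mean level, with levels from 4.14 to 5.52 against a filter at 5.98 (all log2), and none was tested. The group means of the dim Olfml2a probe set ran from 4.40 (500 mg/kg) to 4.64 (50 mg/kg), with 4.44 in vehicle. Those of the dim Serpinh1 probe set ran from 4.75 (vehicle) to 5.12 (200 mg/kg). The 3 of Igf2 had group means between 4.28 and 4.96.

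RNA of tissue labelled as forebrain was hybridised to Affymetrix rat arrays, 1 array and 1 animal each. Male F344 rats aged 11 to 12 weeks received vehicle or D-serine at 5, 20, 50, 200 or 500 mg/kg as a single dose and were killed 96 h later, with 4 rats in each of the 6 groups. D-serine is a co-agonist of the NMDA type of glutamate receptor. The tissue was a section of about 30 mg per rat, and the sources used here do not give the route of dosing, the vehicle or how the section was cut. Because the tissue was not sorted, fewer fibroblasts in a section and less RNA per fibroblast cannot be told apart.

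The meninges are the membranes around the brain, and their inner layers, the pia and arachnoid, follow its surface and its vessels. Fibroblasts of these layers lay down a matrix of collagen fibrils that are spaced and bundled by small leucine-rich proteoglycans, secrete growth factors, produce retinoic acid and take up organic anions from the cerebrospinal fluid. Bgn (biglycan), Dcn (decorin), Lum (lumican) and Fmod (fibromodulin) are such proteoglycans. Serpinh1 (HSP47) is the chaperone that holds procollagen in its folded form in the endoplasmic reticulum, and Olfml2a encodes a secreted protein with an olfactomedin domain. Slc13a3 is a sodium-coupled dicarboxylate transporter, Igf2 is insulin-like growth factor 2, and Aldh1a2 is the retinaldehyde dehydrogenase that makes retinoic acid.

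Promoter sequences of RefSeq, build GRCr8, were at hand for 7 of the 9 genes, each running from 250 bases before to 50 bases after the gene's start. The promoters of Olfml2a and Serpinh1, whose arrays at 500 mg/kg all lay below the vehicle arrays, and of the most closely correlated pair, Fmod and Aldh1a2, are shown 5′ to 3′ along the gene. Capitals mark the motifs searched on both strands, which were the TATA box with the letters TATAAA, the CCAAT box with those letters, the GC box with the letters GGGCGG and the heat shock element, in which the triplet GAA alternates with its reverse complement at a spacing of 2 bases, 3 triplets in all. None of these marked stretches overlaps another.
Olfml2a (chr3:43098049-43098348, plus strand): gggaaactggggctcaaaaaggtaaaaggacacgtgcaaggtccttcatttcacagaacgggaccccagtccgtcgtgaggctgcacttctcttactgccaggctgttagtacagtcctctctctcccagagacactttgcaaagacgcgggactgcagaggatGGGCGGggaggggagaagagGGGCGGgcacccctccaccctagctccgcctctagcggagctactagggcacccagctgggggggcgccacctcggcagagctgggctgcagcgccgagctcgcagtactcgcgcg
Serpinh1 (chr1:163062927-163063226, minus strand): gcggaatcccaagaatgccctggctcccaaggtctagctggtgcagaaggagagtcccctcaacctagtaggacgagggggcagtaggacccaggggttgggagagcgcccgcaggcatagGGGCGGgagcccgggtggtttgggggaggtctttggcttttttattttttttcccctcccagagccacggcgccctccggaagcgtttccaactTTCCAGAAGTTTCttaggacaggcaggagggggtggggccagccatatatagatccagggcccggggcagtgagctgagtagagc
Fmod (chr13:48045317-48045616, plus strand): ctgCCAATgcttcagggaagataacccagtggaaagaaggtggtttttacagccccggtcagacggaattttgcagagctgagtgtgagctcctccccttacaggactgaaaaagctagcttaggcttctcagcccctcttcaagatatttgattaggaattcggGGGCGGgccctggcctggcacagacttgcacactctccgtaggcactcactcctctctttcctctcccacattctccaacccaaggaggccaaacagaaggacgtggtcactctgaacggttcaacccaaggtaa
Aldh1a2 (chr8:80758391-80758690, plus strand): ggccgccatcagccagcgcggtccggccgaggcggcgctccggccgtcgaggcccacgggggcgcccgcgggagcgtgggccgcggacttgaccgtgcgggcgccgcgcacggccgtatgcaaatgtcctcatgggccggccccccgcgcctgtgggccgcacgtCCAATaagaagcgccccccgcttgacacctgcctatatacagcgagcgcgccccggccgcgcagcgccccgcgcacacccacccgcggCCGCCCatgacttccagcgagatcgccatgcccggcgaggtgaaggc
The Serpinh1 promoter held the heat shock element, read from the opposite strand, 35 bases before the start. That motif was found in 0.798% of the 33469 rat promoters in the table, and in no other of the promoters at hand for these genes. The Olfml2a promoter held GC boxes 86 and 66 bases before the start, Serpinh1 held 1 at 129 bases and Fmod 1 at 85 bases, and Aldh1a2 held 1 that begins 3 bases after the start, while 33.1% of all promoters held at least 1. CCAAT lay 247 bases before the start of Fmod and 85 bases before that of Aldh1a2, and 37.5% of all promoters held it. TATAAA, held by 14.2% of all promoters, was not found in any of the 4. A match of letters is a description and not a binding site.

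Values are given as log2(intensity + 16) after quantile normalization, and differences are each dose minus vehicle on that scale with the standard error of a linear model (limma) of all 24 arrays. A share of vehicle is such a difference turned back from log2. It still includes the added 16, so it lies nearer to no change than the ratio of the intensities. A gene is said to have fallen where the adjusted p of that model is under 0.05. The 5 comparisons share the 4 vehicle arrays, so they are not independent of one another. Array medians of the deposited intensity ran from 56 to 103.8. Replicate 4 of the 500 mg/kg group stood apart: its correlation with each other array over the probe sets tested had a median of 0.855. In that array cerebellar markers summed to an intensity of 17537, against 526 to 1292 over all the other arrays, and forebrain neuron markers summed to 2584, the lowest of all arrays. Results at 500 mg/kg are therefore also given without it.

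Relative to vehicle the genes lay mostly lower, and the differences were small. Of the 9 genes 7 had a lower mean than vehicle at 5 mg/kg, 5 at 20 mg/kg and 9 each at 50, 200 and 500 mg/kg. From the lowest to the highest dose the median difference over the 9 genes was -0.22, -0.19, -0.40, -0.29 and -0.32, while the median over all 18625 probe sets tested lay within 0.01 of 0 at each dose. Without replicate 4 of the 500 mg/kg group the median at that dose was -0.40. Only Olfml2a passed the test, at 50 mg/kg and in the comparison of all groups.

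The shares of all probe sets that were called give the background of these counts. No gene of the 9 was called at 5 or at 20 mg/kg, where 5.52% and 8.48% of all probe sets were. At 50 mg/kg 1 of 9 was called, against 0.864% of all probe sets. At 200 mg/kg none was called, nor was any probe set of the whole array (0%), and at 500 mg/kg none was called, against 0.00537%. At an unadjusted p under 0.05 there were 1, 2, 5, 2 and 3 of the 9 genes from the lowest to the highest dose, against 18.9%, 21.8%, 12.9%, 5.3% and 6.9% of all probe sets. The F test over all groups called 1 of 9, with 5.93% of all probe sets called. The slope over the rank of the dose called none of the 9, and 0% of all probe sets.

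**Figure D1:**
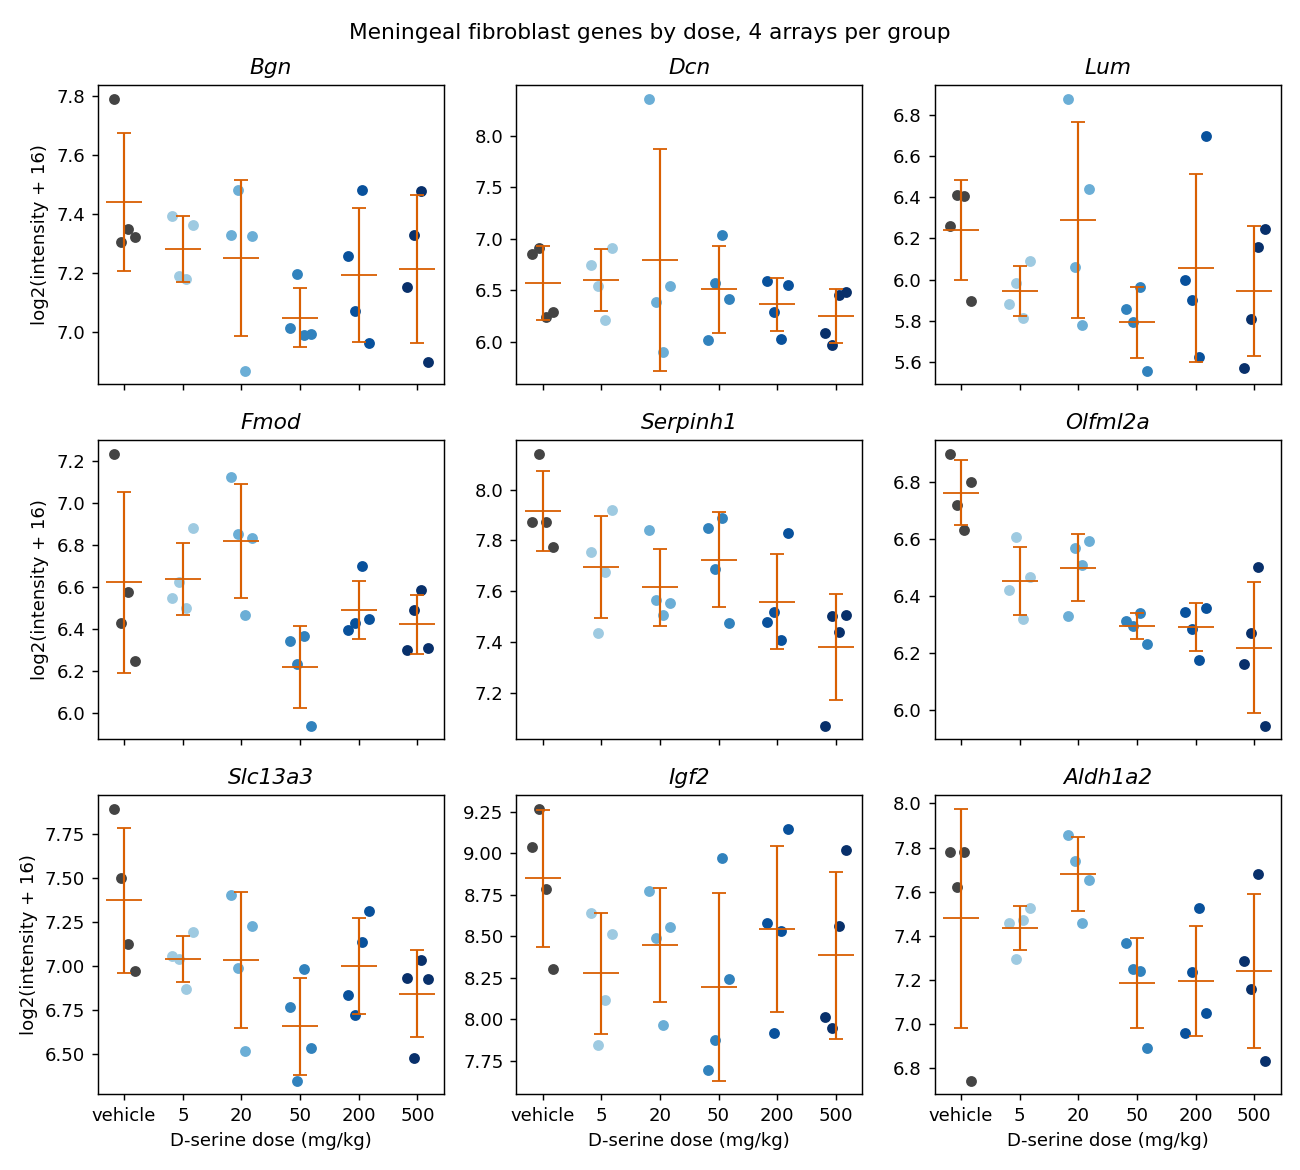
Level of each of the 9 genes, as log2(intensity + 16) on the vertical axis, by dose in mg/kg on the horizontal axis with vehicle at the left. Points are arrays (4 rats per group), and orange bars are the mean and SD. In the panel of Olfml2a all 20 arrays of treated rats lie below all 4 vehicle arrays, and in that of Dcn 1 array at 20 mg/kg lies at 8.36.

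Olfml2a gave the clearest separation. Vehicle rats had 6.90, 6.72, 6.63 and 6.80, the 5 mg/kg group had 6.42, 6.61, 6.32 and 6.47, and the 20 mg/kg group had 6.33, 6.57, 6.51 and 6.59. The 50 mg/kg group had 6.31, 6.29, 6.34 and 6.23, the 200 mg/kg group had 6.35, 6.29, 6.18 and 6.36, and the 500 mg/kg group had 6.16, 6.27, 6.50 and 5.95. Every array of a treated rat lay below every vehicle array, a pattern that 0.0698% of all probe sets showed, although the highest treated value, 6.61 at 5 mg/kg, came close to the lowest vehicle value of 6.63. The differences from vehicle were -0.31 ± 0.11 in the 5 mg/kg group (adjusted p = 0.101), -0.26 ± 0.11 in the 20 mg/kg group (adjusted p = 0.149) and -0.47 ± 0.11 in the 50 mg/kg group (adjusted p = 0.0389). The 200 mg/kg group differed by -0.47 ± 0.11 (adjusted p = 0.667) and the 500 mg/kg group by -0.54 ± 0.11 (adjusted p = 0.169). Without replicate 4 the 500 mg/kg group differed by -0.45 ± 0.11 (adjusted p = 0.422). So Olfml2a fell at 50 mg/kg to 0.724 of vehicle and changed over all groups (F test, adjusted p = 0.0179). Similar or larger differences at 200 and 500 mg/kg did not pass. Before adjustment the p of the model was 0.000269 at 50, 0.000251 at 200 and 4.87e-05 at 500 mg/kg. The call at 50 mg/kg rather than at 200 or 500 mg/kg thus came from the adjustment, made within each comparison, and not from a larger difference.

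The order of the group means of Olfml2a was vehicle, 20, 5, 50, 200 and 500 mg/kg from high to low. Vehicle did not overlap 20 mg/kg, its neighbour in that order, and all later neighbours overlapped. The call at 50 mg/kg was lost with median centring (adjusted p = 0.0595), without the filter on dim values (adjusted p = 0.0749) and on the values as deposited (adjusted p = 0.423). It was also lost when any of 8 single arrays was left out, which were vehicle replicates 1, 2 and 4, replicate 3 at 20 mg/kg, replicates 2, 3 and 4 at 50 mg/kg and replicate 2 at 500 mg/kg. Over all 24 such fits the adjusted p ran from 0.0163 to 0.14 and the difference from -0.51 to -0.42. The F test of Olfml2a was lost without vehicle replicate 1 (adjusted p = 0.0677) or vehicle replicate 4 (adjusted p = 0.0561), and kept without replicate 4 of the 500 mg/kg group (adjusted p = 0.0185). With median centring in place of quantile normalization all 20 treated arrays still lay below the vehicle arrays, whereas in the values as deposited, which differ in overall brightness, 12 of 20 did.

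Serpinh1, the collagen chaperone, had its lowest mean at the highest dose. It measured 7.07, 7.50, 7.44 and 7.50 at 500 mg/kg, against 7.87, 8.14, 7.87 and 7.78 in vehicle rats. These groups did not overlap, as was so for 2 of the 9 genes at this dose (Serpinh1 and Olfml2a) and in the lower direction for 1.33% of all probe sets. The difference was -0.54 ± 0.13, or 0.690 of vehicle, and its adjusted p was 0.309. Without replicate 4 of the 500 mg/kg group it was -0.58 ± 0.14 (adjusted p = 0.422). At 5, 20, 50 and 200 mg/kg Serpinh1 differed from vehicle by -0.22, -0.30, -0.19 and -0.36, each with an error of 0.13 and an adjusted p between 0.168 and 0.863. Of the 20 treated arrays 19 lay below the vehicle mean and 15 below all vehicle arrays. The F test of Serpinh1 gave an adjusted p of 0.113, and of 0.0185 on the values as deposited.

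Slc13a3, the dicarboxylate transporter, had the largest single difference of the 9 genes, at 50 mg/kg. It measured 6.77, 6.35, 6.98 and 6.53 at 50 mg/kg, against 7.89, 7.50, 7.13 and 6.97 in vehicle rats. The highest array at 50 mg/kg passed the lowest vehicle array by 0.01, so the groups just overlapped. The difference was -0.71 ± 0.20, or 0.609 of vehicle (adjusted p = 0.0897). For 5, 20, 200 and 500 mg/kg, in this order, it was -0.33, -0.34, -0.37 and -0.53, each with an error of 0.20 and none past the test. With array weights the difference at 50 mg/kg was -0.75 ± 0.21 (adjusted p = 0.0443). Here 19 of 20 treated arrays lay below the vehicle mean.

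Among the 4 proteoglycans none passed the test at any dose. Bgn measured 7.01, 7.20, 6.99 and 6.99 at 50 mg/kg, against 7.79, 7.31, 7.35 and 7.32 in vehicle rats, and these groups did not overlap. At 50 mg/kg Bgn and Olfml2a were the genes of the 9 whose arrays all lay below vehicle, a separation that 3.48% of all probe sets showed there. The difference of Bgn was -0.39 ± 0.14 (adjusted p = 0.216), and with single arrays left out it ran from -0.44 to -0.28, with the smallest size without vehicle replicate 1. At 5, 20 and 200 mg/kg Olfml2a alone separated from vehicle in this way, against 6.08%, 7.18% and 1.78% of all probe sets.

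Fmod had its highest mean at 20 mg/kg and its lowest at 50 mg/kg. It measured 7.12, 6.85, 6.46 and 6.83 at 20 mg/kg and 6.34, 6.23, 6.37 and 5.94 at 50 mg/kg, against 7.23, 6.43, 6.58 and 6.25 in vehicle rats. Vehicle replicate 1 held the highest value of Fmod, and vehicle lay across most of the range of the treated groups. Relative to vehicle the difference was 0.20 ± 0.17 at 20 mg/kg (adjusted p = 0.559) and -0.40 ± 0.17 at 50 mg/kg (adjusted p = 0.303).

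Lum measured 5.86, 5.79, 5.96 and 5.56 at 50 mg/kg, against 6.26, 6.41, 6.41 and 5.89 in vehicle rats, which overlapped through the last vehicle array. Over the doses Lum differed from vehicle by between -0.45 (50 mg/kg) and 0.05 (20 mg/kg), and Dcn by between -0.32 (500 mg/kg) and 0.23 (20 mg/kg). Dcn was the most variable of the 9 genes, with a within-group SD of 0.53 that was larger than in 97.2% of all probe sets. At 20 mg/kg it measured 8.36, 6.38, 5.90 and 6.54, against 6.85, 6.91, 6.24 and 6.29 in vehicle rats. The high value of replicate 1 set the sign at that dose. Without it Dcn differed by -0.30 ± 0.24 (adjusted p = 0.549) and Lum by -0.15 ± 0.22 (adjusted p = 0.778).

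Igf2 was the brightest of the probe sets tested for these genes, with a mean intensity of 296 at 50 mg/kg and of 459 in vehicle rats. On the log2 scale it measured 7.69, 7.88, 8.97 and 8.24 at 50 mg/kg, against 9.04, 9.27, 8.78 and 8.30 in vehicle rats. The groups overlapped through replicate 3 of the 50 mg/kg group, and the difference was -0.65 ± 0.29 (adjusted p = 0.339). For 5, 20, 200 and 500 mg/kg, in this order, it was -0.57, -0.40, -0.31 and -0.46, with an error of 0.29 each. Its within-group SD of 0.46 was larger than in 95.2% of all probe sets.

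Aldh1a2 measured 7.86, 7.74, 7.46 and 7.65 at 20 mg/kg and 7.37, 7.25, 7.24 and 6.89 at 50 mg/kg, against 7.78, 7.62, 7.78 and 6.74 in vehicle rats. The last vehicle array lay below every treated array, so no group separated from vehicle. The difference was 0.20 ± 0.19 at 20 mg/kg (adjusted p = 0.615), with a 95% interval from -0.20 to 0.60. At 50 mg/kg it was -0.29 ± 0.19 (adjusted p = 0.579). Without vehicle replicate 4 these differences were -0.05 ± 0.16 (adjusted p = 0.921) and -0.54 ± 0.16 (adjusted p = 0.149), so the sign at 20 mg/kg rested on that array. On the values as deposited, with no normalization between arrays, Aldh1a2 lay above vehicle at 20 mg/kg by 0.60 ± 0.19 (adjusted p = 0.0182) and Fmod by 0.54 ± 0.20 (adjusted p = 0.0365).

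Leaving out replicate 4 of the 500 mg/kg group moved some differences at that dose. Without it Bgn stood at -0.12 and Aldh1a2 at -0.11, against -0.23 and -0.24 with it, and Igf2 stood at -0.68, against -0.46 with it. No gene of the 9 was called at 500 mg/kg either way.

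**Figure D2:**
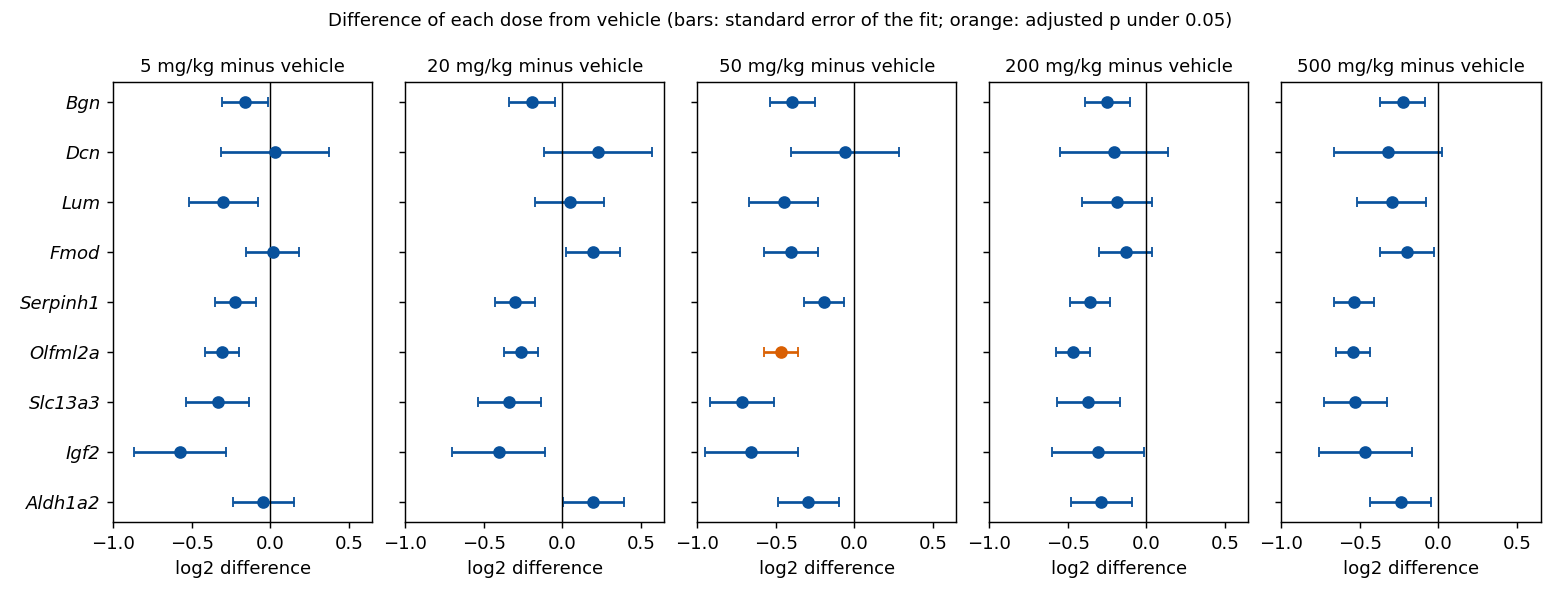
Difference of each dose from vehicle on the log2 scale (horizontal axes) for the 9 genes (rows), 1 panel per dose from 5 to 500 mg/kg, with bars for the standard error of the fit. The orange point, Olfml2a at 50 mg/kg (-0.47), is the only one with an adjusted p under 0.05, and at 50, 200 and 500 mg/kg every point lies left of 0.

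The order of group means differed between the genes. Vehicle had the highest mean for Bgn, Serpinh1, Olfml2a, Slc13a3 and Igf2, and 20 mg/kg for Dcn, Lum, Fmod and Aldh1a2. The lowest mean was at 50 mg/kg for Bgn, Lum, Fmod, Slc13a3, Igf2 and Aldh1a2, and at 500 mg/kg for Dcn, Serpinh1 and Olfml2a. Some of these ranks rested on 1 array. Without replicate 4 of the 500 mg/kg group Olfml2a had its lowest mean at 200 mg/kg (-0.47 from vehicle, against -0.45 at 500 mg/kg), and Igf2 had its lowest at 500 mg/kg (-0.68, against -0.65 at 50 mg/kg). Vehicle stood above 20 mg/kg for Dcn and Lum without replicate 1 of the 20 mg/kg group, for Lum without replicate 4 of that group, and for Aldh1a2 and Lum without vehicle replicate 4. Neighbours in these orders overlapped for every gene, apart from vehicle and 20 mg/kg for Olfml2a. The gap between the highest and the lowest group mean ran from 0.39 for Bgn to 0.71 for Slc13a3.

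Across the 24 arrays the genes went up and down together. All 36 pairs of the 9 genes had a Pearson's r above 0, with a median of 0.48 and a range from 0.13 to 0.76, and 21 pairs had an adjusted p under 0.05 in a permutation test of 100000 shuffles, adjusted over the 36 pairs. With Spearman's rho 17 pairs did. Over all pairs of the 10205 named genes tested the median r was 0, with 50.0% above 0. The points share the normalization, and the pairs share genes, so the 36 values are not independent of one another. The genes were also chosen with earlier results of these data known, which the permutation p does not take into account. Without replicate 4 of the 500 mg/kg group the median was 0.48 with 22 pairs past the threshold. For each pair the 2 arrays farthest from the median of its first gene were also left out. This left 35 of 36 pairs above 0 with a median of 0.45, but arrays outlying only for the other gene stayed in.

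The closest pair was Fmod and Aldh1a2 (r = 0.76, permutation p = 2e-05, adjusted p = 0.00054; rho = 0.803, permutation p = 1e-05, the smallest that 100000 shuffles give, adjusted p = 0.00036), and without the 2 arrays farthest from the median of Fmod r was 0.72. Slc13a3 and Igf2 followed (r = 0.73, permutation p = 3e-05, adjusted p = 0.00054; rho = 0.702, permutation p = 0.00024, adjusted p = 0.00223), with r = 0.70 without the 2 farthest arrays. Fmod also went with Slc13a3 (r = 0.70, permutation p = 0.00019, adjusted p = 0.00171; rho = 0.665, permutation p = 0.00063, adjusted p = 0.00378), where r was 0.51 without the 2 farthest arrays. The loosest pair was Dcn and Olfml2a (r = 0.13, permutation p = 0.548, adjusted p = 0.548; rho = 0.293, permutation p = 0.163, adjusted p = 0.226).

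Within the dose groups the median r was lower. When each array was taken as its deviation from its group's mean, 30 of 36 pairs stayed above 0, the median r was 0.37 and 12 pairs had an adjusted p under 0.05. Lum and Serpinh1 had the highest r among these deviations (0.73, adjusted p = 0.00252 in the permutation test), followed by Bgn and Fmod (0.70, adjusted p = 0.0109), Dcn and Lum (0.70, adjusted p = 0.00516) and Fmod and Slc13a3 (0.70, adjusted p = 0.0179). Bgn and Lum, by contrast, stood at -0.05 (adjusted p = 0.879). Slc13a3 had the highest r with the mean of the other 8 genes, 0.84 over the arrays and 0.81 as deviations. Olfml2a had the lowest, 0.46 over the arrays and 0.03 as deviations, so that within the dose groups it hardly moved with the others.

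**Figure D3:**
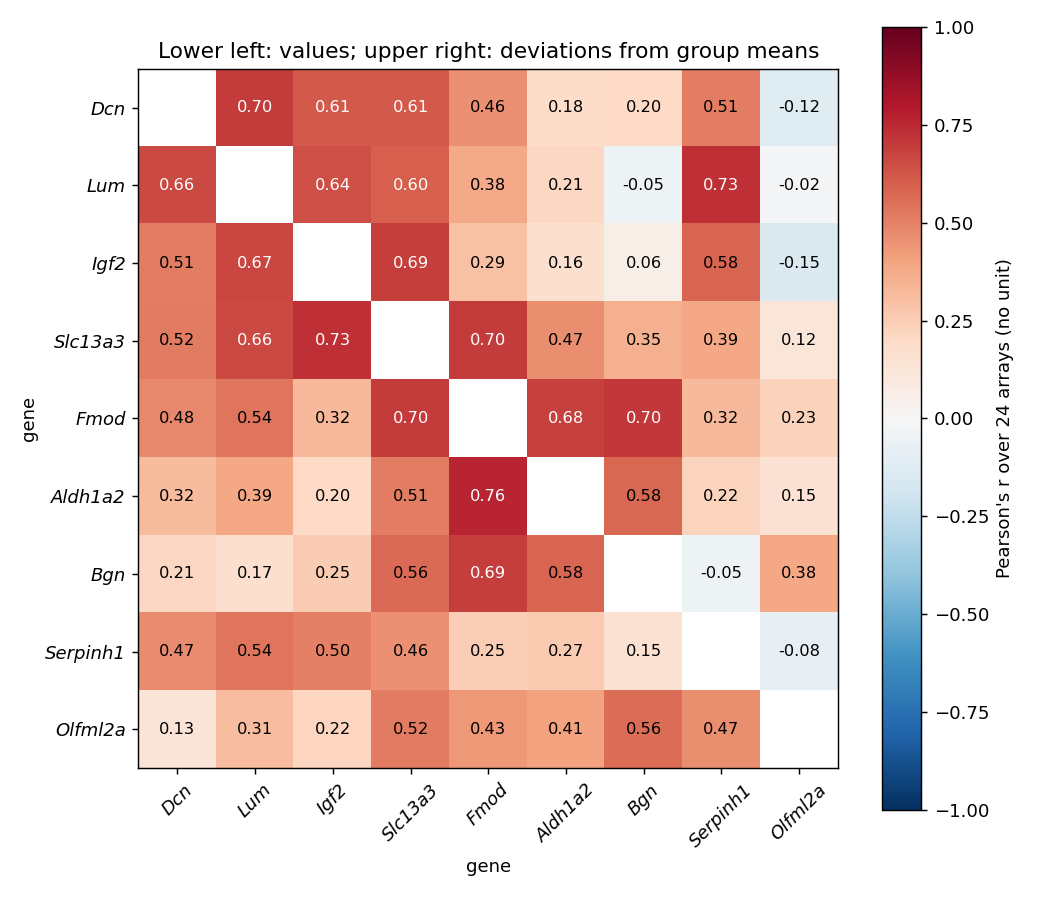
Pearson's r between the 9 genes over 24 arrays, on a colour scale from -1 to 1, with the values below the diagonal and the deviations from the group means above it. Below the diagonal every r is positive, up to 0.76 for Fmod and Aldh1a2, and above it the column of Olfml2a runs from -0.15 to 0.38.

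Single arrays were high or low for most of the genes at once. The mean deviation of the 9 genes from their own means was highest in replicate 1 of the 20 mg/kg group (0.52, with 8 of 9 genes above their mean) and in vehicle replicate 1 (0.49, 9 of 9). It was lowest in replicate 4 of the 50 mg/kg group (-0.33, 0 of 9) and in replicate 1 of the 500 mg/kg group (-0.29, 0 of 9). Within the vehicle group alone it ran from -0.10 to 0.49, a wider span than any of the median differences between a dose and vehicle. At 20 mg/kg replicate 3 had the lowest value of its group for 8 of 9 genes, and replicate 1 the highest for 7 of 9.

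The 8 other genes most like the mean of the 9 across the 24 arrays were found by Pearson's r, as a description. They were Slc13a4 (0.84), Ptgds (0.84), Colec12 (0.83), Ogn (0.82), Col3a1 (0.80), Dab2 (0.78), Slc6a20a (0.77) and Bmp6 (0.76). Without replicate 4 of the 500 mg/kg group 7 of these stayed among the closest, and Ifitm1 (0.78) took the place of Bmp6 (0.75).

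The label was checked against marker lists of the cell types that a section can hold, each list summarised as its mean deviation per array. The mean of the 9 genes had an r of 0.81 with the mean of 19 other meningeal fibroblast markers (0.78 as deviations from the group means). The r was 0.35 with 10 endothelial markers, 0.36 with 10 smooth muscle and pericyte markers, 0.16 with 7 choroid plexus markers and 0.44 with 3 blood markers. As deviations these were 0.08, 0.21, 0.32 and 0.48, in this order. Lists of matrix and pathway genes lay between or lower. The r was 0.65 with 8 collagens, 0.61 with 2 other small leucine-rich proteoglycans and 0.49 with 8 genes of collagen folding and crosslinking. It was 0.62 with 9 genes of the insulin-like growth factor pathway (0.72 as deviations) and 0.17 with 9 of the retinoic acid pathway. All are descriptions over 24 arrays of 1 normalization, with no p, and the lists were chosen with earlier results of these data known. Taken singly, Fmod (0.80), Slc13a3 (0.76), Aldh1a2 (0.72) and Bgn (0.71) lay closest to the other meningeal markers.

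Olfml2a and Serpinh1 followed another list more closely than the meningeal one over the arrays by both Pearson's r and Spearman's rho, and Igf2 did so by Pearson's r alone. Olfml2a had an r of 0.65 with the endothelial markers (rho = 0.610) and of 0.41 with the other meningeal markers (rho = 0.416), and as deviations from the group means these were 0.44 and 0.11. Serpinh1 had an r of 0.58 with the blood markers (rho = 0.568) and of 0.38 with the meningeal ones (rho = 0.368). As deviations from the group means Serpinh1 stood at 0.33 with the blood markers and 0.29 with the meningeal ones, and was closest to the choroid plexus markers (0.52). Lum was about as close to the blood markers (0.42) as to the meningeal ones (0.43) over the arrays by Pearson's r. By Spearman's rho it was closer to the meningeal ones (0.484) than to the blood markers (0.306). As deviations it was closer to the blood (0.63) and choroid plexus markers (0.47) than to the meningeal ones (0.31). Igf2, which the choroid plexus also makes, had an r of 0.63 with the choroid plexus markers (rho = 0.363) and of 0.53 with the meningeal ones (rho = 0.508), and as deviations of 0.69 and 0.52. Choroid plexus markers were high in only some arrays, summing to an intensity of 920 to 13188 in vehicle, 905 to 958 in the 5 mg/kg group and 703 to 929 in the 20 mg/kg group. The ranges were 1020 to 12327 in the 50 mg/kg group, 841 to 10572 in the 200 mg/kg group and 910 to 9048 in the 500 mg/kg group. Their part in the values of Igf2 was not tested.

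**Figure D4:**
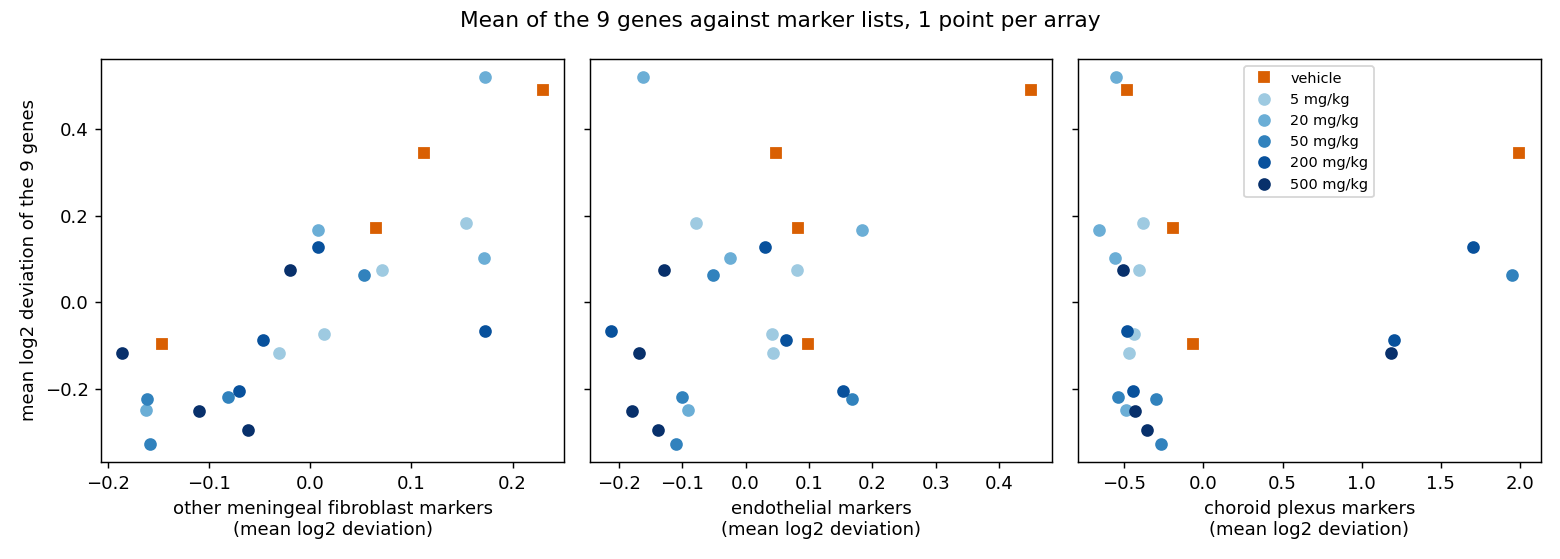
Mean log2 deviation of the 9 genes (vertical axis) against that of 3 marker lists (horizontal axes), 1 point per array, with vehicle as orange squares and doses in darkening blue. The points rise together for the other meningeal markers (r = 0.81) and scatter for the endothelial (r = 0.35) and choroid plexus markers (r = 0.16), where a few arrays lie far to the right.

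No endothelial or blood marker passed in any comparison, and most had means below vehicle. Of 11 listed endothelial genes 10 were on the array and tested. From the lowest to the highest dose 8, 9, 9, 8 and 9 of these 10 had a lower mean than vehicle, with median differences of -0.20, -0.13, -0.16, -0.12 and -0.34 (-0.36 at 500 mg/kg without replicate 4 of that group). They summed to an intensity of 1980 to 2113 at 500 mg/kg, against 2341 to 3347 in vehicle. At 50 mg/kg, the only dose at which Olfml2a was called, they summed to 1964 to 2668. The 3 blood markers tested had a median difference of -1.07 in the 200 mg/kg group and -0.97 in the 500 mg/kg group. Their summed intensity was 831 to 5355 at 200 mg/kg and 1241 to 2366 at 500 mg/kg, against 2866 to 4126 in vehicle. The part of either in the lower values of Olfml2a and Serpinh1 was not tested.

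RNA quality, read from control probe sets at both ends of beta-actin and Gapdh (3′ over 5′, log2), differed between the groups. For Gapdh the groups at 5, 20 and 50 mg/kg had 0.19 ± 0.07, 0.18 ± 0.04 and 0.34 ± 0.17, against 0.82 ± 0.06 in vehicle (SD, n = 4 each), and each gave an exact permutation p of 0.0286 (adjusted p = 0.0476). The 200 mg/kg group had 0.60 ± 0.21 and the 500 mg/kg group 0.75 ± 0.14, against the same vehicle arrays (exact permutation p = 0.0857 and 0.371). The beta-actin ratio at 5, 20 and 50 mg/kg was 1.68 ± 0.11, 1.59 ± 0.18 and 1.86 ± 0.07, against 2.52 ± 0.18 in vehicle, with the same exact permutation p. With 4 against 4 arrays the exact two-sided test cannot give a p under 0.0286. The mean of the 9 genes had an r of -0.02 with the Gapdh ratio and of -0.03 with the beta-actin ratio. With the Gapdh ratio as a covariate Olfml2a differed by -0.50 ± 0.17 at 50 mg/kg (adjusted p = 0.769) and its F test gave an adjusted p of 0.807, and no probe set of the array was called in either.

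Other genes of the same cells and pathways were counted in the same way. There were 19 other meningeal markers tested. By dose, 10, 13, 14, 13 and 17 of them had a lower mean than vehicle from the lowest to the highest, with medians of -0.01, -0.06, -0.19, -0.07 and -0.17, and none passed in any comparison. The 3 with the smallest F test p were Efemp1, which encodes the matrix protein fibulin-3, with -0.53 at 50 mg/kg (F test, adjusted p = 0.192), and Ptgds, the brain's prostaglandin D synthase, with -0.48 (F test, adjusted p = 0.221), and Ccn3, a matricellular protein. Ccn3 lay above vehicle at every dose, by 0.89, 0.98, 0.81, 0.75 and 0.20 from the lowest to the highest (F test, adjusted p = 0.342). Of the other small leucine-rich proteoglycans only Ogn and Podn were bright enough to be tested, at -0.56 and 0.11 at 50 mg/kg, and neither passed. Of 8 collagens tested 7, 8, 7, 6 and 6 had a lower mean than vehicle from the lowest to the highest dose, with medians of -0.17, -0.21, -0.32, -0.11 and -0.18, and 0 of 8 passed. Of the 4 brightest Col3a1 differed most (-0.89 at 50 mg/kg and -0.96 at 500 mg/kg, F test adjusted p = 0.102), while Col5a2 (-0.41), Col6a1 (-0.23) and Col5a1 (-0.22) differed less at 50 mg/kg.

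Serpinh1 works beside enzymes that modify and crosslink procollagen. Of 8 such genes tested 4, 5, 6, 6 and 5 had a lower mean than vehicle from the lowest to the highest dose, with medians between -0.08 and 0.00, and none passed. P3h1, a prolyl hydroxylase, had the smallest F test p of them (-0.43 at 50 mg/kg, adjusted p = 0.318). The list's median was -0.04 at 500 mg/kg, where Serpinh1 stood at -0.54.

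Of 9 tested genes of the insulin-like growth factor pathway 1 passed the F test. This was Igf1r, the receptor through which Igf2 signals (adjusted p = 0.0477), with differences of -0.19, -0.23, -0.23, -0.03 and 0.08 from the lowest to the highest dose, none of which passed alone. Igf2r, which clears Igf2 from outside the cell, differed by -0.23 at 5 mg/kg and 0.01 at 500 mg/kg (F test, adjusted p = 0.367). Of 9 tested genes of the retinoic acid pathway none passed. From the lowest to the highest dose 5, 4, 8, 4 and 6 had a lower mean than vehicle, with medians of -0.01, 0.06, -0.23, 0.01 and -0.04 (0.04 at 500 mg/kg without replicate 4 of that group). Cyp26b1, which breaks retinoic acid down, stood at -0.06, 0.42, -0.29, 0.31 and 0.60 in the same order (F test, adjusted p = 0.325), and Crabp2, which carries it to its receptor, at -0.27, -0.16, -0.52, -0.31 and -0.31 (adjusted p = 0.401).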

How the data were processed

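Total RNA of 24 rats was measured, and the authors deposited 1 linear intensity for each probe set. The submitters' processing notes name GCOS, the array software of Affymetrix, and the sources used here give no version, setting or scaling target. The authors' 31099 probe sets included 57 controls. Array medians of log2(intensity + 16) spanned 0.73, above the limit of 0.5, so quantile normalization was applied to the deposited values before log2(intensity + 16), a scale that understates the change of dim probe sets. Leaving out controls and the dimmest 40% by mean level kept 18625 for testing.

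Gene names came from the platform annotation: 20832 probe sets had 1 symbol, 436 several and 9831 none, and 20764 symbols were updated by Entrez ID through the RefSeq table of GRCr8. A probe set ending in _s_at, as that of Serpinh1 does, can also detect related transcripts. Groups were taken from the labels. Each array is a different animal there, and replicate numbers only name arrays. The animal numbers in the labels run in separate blocks by group, so dose and the order of those numbers cannot be told apart. No scan or labelling batch was at hand.

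All arrays were fitted jointly, with a mean for each of 6 groups and a variance trend (limma 3.58.1 in R 4.3.3), and with Benjamini-Hochberg adjustment over all 18625 probe sets within each comparison. Correlations used 100000 permutations (numpy 2.4.6) with adjustment over 36 pairs, and the RNA ratios used an exact permutation test (scipy 1.17.1). The steps were tested on simulated data. The 9 genes, the marker lists and the tests were chosen with earlier results of these data known. Genes outside the 9 were named by a rule: per list at most the 4 with the smallest F test p, the 8 most like the mean of the 9, and the 4 brightest collagens. Tbr1 and Rgs5 passed the F test in the forebrain neuron and the smooth muscle and pericyte lists (1 of 10 each). In the choroid plexus, endothelial, blood and cerebellar lists 0 passed. Of the smooth muscle and pericyte list, Myl9 was called lower at 50 mg/kg (-0.71, adjusted p = 0.0371 in the model). Rgs5 was called higher at 20 mg/kg (0.56, adjusted p = 0.00849). Tbr1 was called higher at 5 and 20 mg/kg (1.11 and 1.16, adjusted p = 0.00931 and 0.00459). The alternatives were median centring, the deposited values, other filters and pseudocounts, other moderation, array weights, 1 probe set per gene, the Gapdh ratio as a covariate, the 8 arrays of a comparison alone, the dose in mg/kg and each array left out. Counting Olfml2a under other scalings was added after its values were seen. For arrays, their number limits the precision.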

Additional observations from a re-analysis of the deposited data

Results flagged for a closer look

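Among the 54 sets of 4 arrays (9 genes in 6 groups), 4 held 1 array far from the other 3 by Dixon's criterion, which chance gives for about 1 set in 20. Aldh1a2 measured 6.74 in vehicle replicate 4, where the other vehicle arrays had a median of 7.78. Bgn measured 7.79 in vehicle replicate 1, against a median of 7.32 in the other vehicle arrays, and 7.20 in replicate 2 of the 50 mg/kg group, against 6.99 in the others of that group. Serpinh1 measured 7.07 in replicate 1 of the 500 mg/kg group, against 7.50 in the others, and without that array the difference of the group from vehicle was -0.43.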

How the results depend on the processing

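The count of the 9 genes called at 50 mg/kg against vehicle, 1 with the main settings, was 0 with median centring (Olfml2a, adjusted p = 0.0595), with the values as deposited, with no filter (adjusted p = 0.0749), with a filter of 60% (which removed Olfml2a), with 1 probe set per gene (adjusted p = 0.0745), with the Gapdh ratio as covariate with and without replicate 4 of the 500 mg/kg group, and with the 8 arrays of both groups alone (adjusted p = 0.121). It was 2 with array weights, which added Slc13a3 (-0.75, adjusted p = 0.0443). With single arrays left out it ran from 0 to 1, and the call of Olfml2a was lost without vehicle replicates 1, 2 or 4, replicate 3 of 20 mg/kg, replicates 2, 3 or 4 of 50 mg/kg, or replicate 2 of 500 mg/kg. The F test count, 1 with the main settings, was 4 with the values as deposited (Aldh1a2, Fmod and Serpinh1 added), 0 with a filter of 60% and 0 with the Gapdh ratio as covariate with and without replicate 4 of the 500 mg/kg group, and 0 to 1 with single arrays left out. The count at 20 mg/kg was 2 with the values as deposited, where Aldh1a2 (0.60, adjusted p = 0.0182) and Fmod (0.54, adjusted p = 0.0365) lay above vehicle, and 0 otherwise. Pairs of genes past the threshold numbered 21 over the arrays and 12 as deviations from the group means. The causes were not tested, apart from the filter that removed Olfml2a. That filter of 60% also removed Dcn, Fmod and Lum, which were therefore not tested under it. The counts at 5, 200 and 500 mg/kg and of the slope stayed at 0 under every alternative run, and of 2294 single-gene values under an alternative 19 lost a call, all of Olfml2a, and 6 gained one. The calls of Olfml2a kept their sign, while 40 values that were not called changed sign. No paired analysis was possible because the replicate numbers only name arrays of separate animals. The median standard error of the differences of the 9 genes was 0.19 at 4 arrays in each group, and differences as large as -0.71 (Slc13a3 at 50 mg/kg) were not called, so a gene without a call may still differ.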
